A study of Mus musculus with 12 samples.

Results

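Mouse embryonic stem cells in which a doxycycline-driven transgene was the source of Cdk13 were compared after 48 h without doxycycline and in continuous doxycycline, exon part by exon part. An exon part is a stretch of a gene that is counted as a unit. The comparison took in 8 of the 12 libraries of the series, 4 after 48 h without the drug and 4 kept in it, and every exon part that has a 48 h value in the authors' deposited table. That was 42340 of 138745 parts (30.5%), in 7026 of 15139 genes. The other 4 libraries were taken after 72 h without doxycycline and appear below only as later values of the same parts.

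All cells were V6.5 embryonic stem cells of the C57Bl/6-129 background with the genotype Cdk13-/-; Cdk13 Tg+. Both conditions used the clones 11-8 and 14-1, with 2 libraries per clone in each condition. Cells of the 48 h group had been washed and moved to medium without doxycycline, and cells of the doxycycline group stayed in 1 ug/mL. Every library therefore lacks the endogenous Cdk13 gene. Libraries of cells without the transgene taken off doxycycline were not analysed here, so loss of Cdk13 and removal of the drug cannot be told apart. The RNA integrity number was 9.05 ± 0.17 after 48 h without doxycycline and 9.10 ± 0.14 in doxycycline (SD, n = 4 each), and its part in the results was not tested. Depth and values per library were not used here, so the fold changes below have no spread between replicates, and the evidence for each part is the adjusted p-value that the authors obtained with DEXSeq. The table gives use within a gene and not the level of a gene, so the cell type could not be checked by marker levels. Of 9 embryonic stem cell markers, 7 had tested parts, 17 parts in all, and none of those parts was called. Trophoblast, neural ectoderm and fibroblast marker lists had 2 tested genes each, with no called part, and primitive endoderm and mesoderm lists had no tested gene. Over all tested genes 7.12% had a called part, and 1.62% of all tested parts were called. With so few marker parts, the lack of calls is therefore no result about the markers.

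CDK13 is a kinase that pairs with cyclin K and phosphorylates the repeated tail of RNA polymerase II, as its close relative CDK12 does. That tail binds capping, splicing and 3′ end processing factors while the gene is being transcribed, and cyclin K kinases are known for keeping the polymerase productive across long genes. DEXSeq asks whether a part takes up more or less of its gene's reads than before. A log2 fold change above 0 below means a larger share of the gene's reads in that part after 48 h without doxycycline. A rise in one part lowers the shares of the rest, so parts of a gene are not independent of each other. In RNA from whole cultures, a change in all cells and a change in the number of cells of one kind cannot be told apart.

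Among the parts named below, 8 coding exons are printed here because the gene profiles turn on them: a pair from the 5′ block of Psmb10 that rose, a pair from the 3′ block of Coil that rose, the Dhx16 exon with that gene's highest value, a Krt42 exon that fell and one that rose, and a 27-base cassette exon of Fip1l1 that fell. Sequences are from GENCODE M21 transcripts on GRCm38, matched to the parts by gene and width. They run 5′ to 3′ on the strand of the gene, and capitals mark the last 3 bases of the exon, next to its 5′ splice site.
Psmb10 E009: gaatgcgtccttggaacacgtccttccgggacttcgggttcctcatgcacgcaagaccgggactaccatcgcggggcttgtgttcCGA
Psmb10 E008: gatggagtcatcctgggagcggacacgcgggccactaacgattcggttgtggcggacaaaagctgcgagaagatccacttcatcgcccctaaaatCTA
Coil E009: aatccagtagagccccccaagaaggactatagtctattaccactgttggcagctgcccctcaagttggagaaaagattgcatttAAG
Coil E010: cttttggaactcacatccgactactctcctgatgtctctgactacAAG
Dhx16 E004: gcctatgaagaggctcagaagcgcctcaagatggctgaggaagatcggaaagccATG
Krt42 E010: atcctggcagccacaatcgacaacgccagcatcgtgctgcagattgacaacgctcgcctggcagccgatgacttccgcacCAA
Krt42 E005: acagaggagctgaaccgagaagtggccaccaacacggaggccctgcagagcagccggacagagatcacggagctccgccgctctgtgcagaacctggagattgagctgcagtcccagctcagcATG
Fip1l1 E021: gtattccaataactgtaccacctcCAG
The 8 exons are internal and coding throughout in at least 1 annotated transcript. On mm9, the build of the table, Psmb10 E009 lies at chr8:108461579-108461666 and E008 at chr8:108461394-108461491, both on the minus strand. Coil E009 lies at chr11:88843603-88843689 and E010 at chr11:88843917-88843964, on the plus strand. Dhx16 E004 lies at chr17:36018967-36019023 on the plus strand, and Fip1l1 E021 at chr5:74981071-74981097 on the plus strand. Krt42 E010 lies at chr11:100128514-100128596 and E005 at chr11:100126243-100126368, on the minus strand.

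The 48 h comparison gave many small changes in 2 opposite directions. A part was called where the authors' adjusted p was below 0.05. By that rule 686 parts were called, which is 1.62% of the tested parts. Of these, 408 were higher without doxycycline (0.964% of tested parts), 268 were lower (0.633%), and 10 had no fold change in the table. The called parts lay in 500 genes (7.12% of tested genes), 324 genes with a higher part (4.61%) and 235 with a lower one (3.34%). Below 0.01 the called share was 0.716% of parts (0.437% higher, 0.272% lower) and 3.26% of genes, and below 0.1 it was 2.82% of parts (1.74% higher, 1.05% lower) and 11.7% of genes. Among the calls with a fold, 193 had an absolute log2 fold change below 0.05, 218 lay between 0.05 and 0.1, 219 between 0.1 and 0.2, and 46 were at 0.2 or more. The group of at least 0.2 held 20 higher and 26 lower parts. Size alone did not decide a call, since 50 tested parts of at least 0.2 were not called. Over all tested parts the median log2 fold change was 0.00, with quartiles of -0.02 and 0.03 and a range from -0.57 to 0.54. The calls nearest to the threshold were terminal exons of Actn4 and Prdx2, at -0.05 and -0.03, and the nearest parts that missed it were the terminal exon of Vamp3 (-0.03) and an internal part of BC004004 (-0.07), in the authors' deposited table.

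First exons were mostly higher without doxycycline. Of 2373 tested first exons, 145 were higher without doxycycline and 4 lower, and 82.5% of those with a fold were above 0, called or not. Terminal exons, which hold most 3′ untranslated regions, went the other way: 116 were lower and 7 higher of 3954 tested, and 23.6% of those with a fold were above 0. Class medians over tested parts were 0.04 for first exons and -0.02 for terminal exons, against 0.00 for the 33615 unclassified parts, which are mostly internal exons. Unclassified parts had 235 higher and 133 lower calls, and 1.1% of them were called, beside 6.32% of first exons and 3.31% of terminal exons. The unclassified parts of lowest adjusted p were Psmb10 E009 and E008 and Dido1 E030 among those that rose, and Coil E002, 1500012F01Rik E005 and a part of the histone variant gene H2afz (-0.03) among those that fell, in the authors' deposited table. An unclassified part of BC032203 (0.35) was also among the 10 highest called parts in the authors' deposited table. The called first exons that rose had a median log2 fold change of 0.09, and the called terminal exons that fell had one of -0.08.

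**Figure D1:**
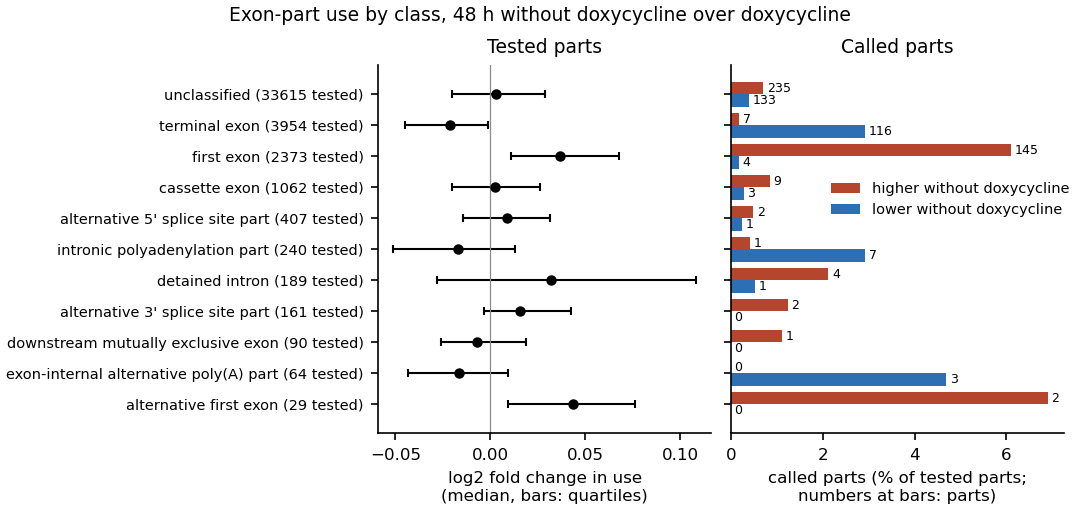
Left, the log2 fold change in use after 48 h without doxycycline over doxycycline for tested parts of each of the authors' classes with a called part (point: median, bars: quartiles). Right, the percentage of tested parts called higher or lower, with the number of parts at each bar. First exons stand at a median of 0.04 with 145 higher and 4 lower calls, and terminal exons at -0.02 with 7 higher and 116 lower calls.

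Among first exons, the highest values came from Psmb10, the gene of a catalytic immunoproteasome subunit, Aldoa, which encodes glycolytic aldolase, and Triml1, at log2 fold changes of 0.40, 0.34 and 0.32 in the authors' deposited table. The lowest adjusted p-values of this class belonged to Psmb10 (1.3e-27), Fam32a (2.8e-10) and Aldoa (1.2e-09) in the authors' deposited table. The 4 first exons that fell were exceptions to the class. They were those of the keratin gene Krt42 (-0.18), of Tgif1 (-0.15), which encodes a homeodomain repressor of TGF-beta signalling, of Uqcr10 (-0.10), a subunit of respiratory complex III, and of the zinc finger gene Zglp1 (-0.06), in the authors' deposited table. Uqcr10 had 1 part in the table, so its value has no other part of the gene beside it. In Tgif1 and Zglp1 the part next to the first exon rose, by 0.14 and 0.19 in the authors' deposited table. The first exon and the second part of these genes thus moved against each other. The first exon of Uqcr10 and the small-class parts beyond the lowest 3 adjusted p-values in a direction were named after their values were seen.

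Terminal exons that fell were led, by adjusted p, by Csnk1d, a casein kinase gene (-0.09, adjusted p = 7.9e-16), Gse1 (-0.29, adjusted p = 8.6e-14) and the phosphatase gene Ptpn3 (-0.31, adjusted p = 4.3e-13), in the authors' deposited table. Ssh1, which encodes a cofilin phosphatase, and Hsd3b7, an enzyme of bile acid synthesis, had the lowest terminal exon values, -0.34 and -0.33 in the authors' deposited table. The 7 terminal exons that rose belonged to Rpl9 (0.17), the corepressor gene Sin3b (0.16), Coil (0.11), Trp53 (0.10), Ankrd24 (0.05), Rangrf (0.05) and Hdlbp (0.04), in the authors' deposited table. Several of these are short ends: the Rangrf part spans 12 bases, the Rpl9 part 21 and the Trp53 part 96. In Trp53, the gene of the tumour suppressor p53, the 7 tested parts between the called internal part E004 (0.03) and the terminal part E015 (0.10) lay between -0.01 and 0.01 in the authors' deposited table. The rise of E015 was therefore not shared by the exons before it.

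The classes of alternative processing are given with their share of calls, to be read against 1.62% of all tested parts, 0.964% higher and 0.633% lower. Of 2777 detained introns, which are introns kept in otherwise spliced and polyadenylated RNA, only 189 (6.81%) were tested at 48 h. Of those tested 2.65% were called, 2.12% higher and 0.529% lower. The class median over tested parts was 0.03, with quartiles of -0.03 and 0.11, and 63.5% of tested detained introns were above 0. The 4 higher calls were in H2afy (0.34), which encodes the histone variant macroH2A1, in the T cell kinase gene Lck (0.26), in the sodium/proton exchanger gene Slc9a8 (0.23) and in Mdm4 (0.20), a regulator of p53, in the authors' deposited table. The called detained intron that was lower was in Coil (-0.36), in the authors' deposited table. In H2afy the 5 other tested parts lay between -0.03 and 0.02, so the rise was limited to the intron among the tested parts. At 72 h the 4 introns that were higher at 48 h stood at 0.53, 0.21, 0.29 and 0.32 in the authors' deposited table, in the same order of genes. The adjusted p-values at 72 h were 2.1e-12 for H2afy, 0.15 for Lck and 1.4e-09 for Slc9a8, in the authors' deposited table. The Lck intron was thus not called at 72 h. Both times are set against the same doxycycline libraries.

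Intronic polyadenylation parts, which mark transcripts that end inside an intron, had 7 lower calls (2.92%) and 1 higher call (0.417%) among 240 tested, and 3.33% were called in all. The lowest were in the small nucleolar RNA host transcripts 1500012F01Rik (-0.57, adjusted p = 1.4e-21) and 2410006H16Rik (-0.40, adjusted p = 3.7e-04), in the authors' deposited table. Others that were lower were in Rcc1 (-0.26), the nucleotide exchange factor of Ran, in the spliceosomal helicase gene Ddx46 (-0.23), in the splicing factor gene Luc7l (-0.17) and in 2310008H09Rik (-0.06), in the authors' deposited table. In Rcc1 the 8 other tested parts lay between 0.01 and 0.06 in the authors' deposited table. The part that rose was in Iscu (0.19), the scaffold of iron-sulfur cluster assembly, whose other 2 tested parts both stood at 0.01 in the authors' deposited table. Exon-internal alternative polyadenylation parts fell in Coil (-0.45), Zfpl1+1110014N23Rik (-0.10) and Rpl24 (-0.03), in the authors' deposited table, which makes 3 of 64 tested (4.69%), and none rose.

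Cassette exons were called in both directions, 9 higher and 3 lower among 1062 tested (1.13%). The class median was 0.00. Those that rose ranged from 0.03 in the alcohol dehydrogenase gene Adh5 to 0.17 in the HMG box gene Hmgxb4, in the authors' deposited table. The 27-base exon of Fip1l1 printed above, in the gene of a subunit of the cleavage and polyadenylation machinery, fell by 0.18 (adjusted p = 0.048) in the authors' deposited table. The tested parts on either side of it, E020 and E023, stood at -0.07 and -0.04 and were not called, in the authors' deposited table. Cassette exons of Tars (-0.07), a tRNA synthetase gene, and Psma5 (-0.02), a proteasome subunit gene, also fell in the authors' deposited table. Calls were made in 1.24% of 161 tested alternative 3′ splice site parts and in 0.737% of 407 tested alternative 5′ splice site parts. An alternative 3′ splice site part of 12 bases rose in Srsf2 (0.11, adjusted p = 5.1e-06), which encodes an SR splicing factor, while the first and terminal exons of that gene were not called at 0.03 and -0.05, in the authors' deposited table. The other was in Sfpq (0.06), a paraspeckle protein gene, in the authors' deposited table. Alternative 5′ splice site parts rose in the cyclin gene Ccnf (0.08) and in Hnrnpk (0.04), where the part spans 9 bases, and fell in the cleavage factor gene Cpsf1 (-0.12), in the authors' deposited table. Alternative first exons rose in Macf1 (0.35) and Tars (0.09), 6.9% of the 29 tested, and a downstream mutually exclusive exon rose in Calr (0.03), the gene of the chaperone calreticulin, in the authors' deposited table. Upstream mutually exclusive exons (92 tested) and alternative last exons (22 tested) had no called part.

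Position along the gene ordered the changes over all classes and within the unclassified parts. Parts were ordered 5′ to 3′ in genes with at least 3 parts. Of the 391 higher parts off the exact middle, 337 (86.2%) lay on the 5′ side, and of the 258 lower parts 236 (91.5%) lay on the 3′ side. That order was also cut into 10 bins of equal width, and the median log2 fold change over tested parts was 0.04 in bin 1, 0.03 in bin 2, 0.01 in bin 4, 0.00 in bin 6, -0.01 in bin 8 and -0.02 in bin 10. Unclassified parts alone had the same medians to 2 decimals in those bins. Unclassified parts called higher made up 2.82% of those tested in bin 1 and 0.201% in bin 10, and those called lower made up 0% in bin 1 and 1.21% in bin 10. The side was set by the order of parts. Tested parts were uneven along that order, from 2615 in bin 1 to 5475 in bin 10. The percentages by side are therefore not to be read against an even split. Over all classes, 5.43% of tested parts in bin 1 were called higher and 0.0765% lower. In bin 10 these shares were 0.201% and 2.14%.

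**Figure D2:**
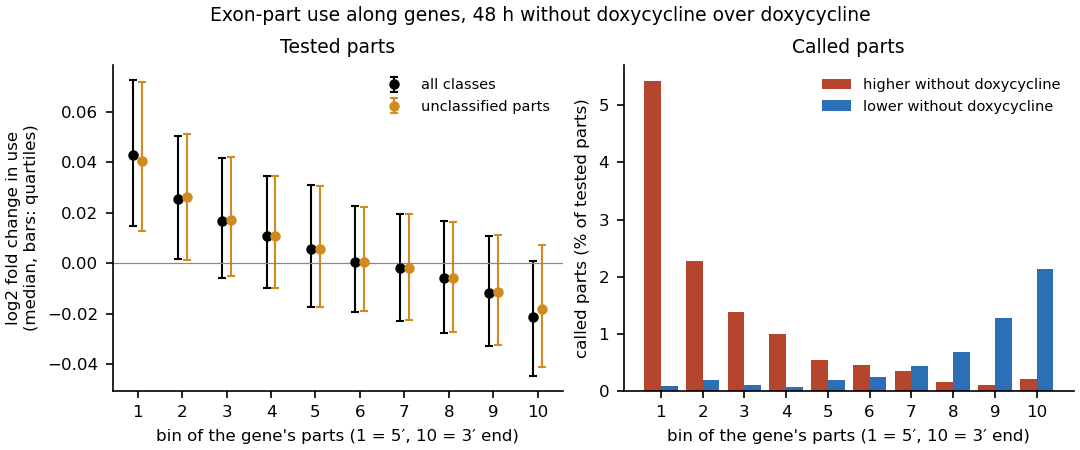
Left, the log2 fold change in use after 48 h without doxycycline over doxycycline in 10 bins along the gene, bin 1 at the 5′ end (point: median, bars: quartiles), for all classes and for unclassified parts alone. Right, the percentage of tested parts called higher or lower in each bin. The medians descend from bin 1 to bin 10, with higher calls at 5.43% of tested parts in bin 1 and lower calls at 2.14% in bin 10.

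Class and position were set side by side at the ends of genes. In genes with at least 10 parts, the 5′-most part had a median of 0.05 where it was a first exon (67 higher, 0 lower of 1010) and 0.03 where it was unclassified (2 higher, 0 lower of 68). Unclassified parts at places 2, 3 and 4 from the 5′ end had medians of 0.03, 0.02 and 0.01. At the other end, the 3′-most part had a median of -0.03 where it was a terminal exon (59 lower, 4 higher of 1966) and -0.01 where it was unclassified (4 lower, 0 higher of 307). The next 2 unclassified parts from the 3′ end both had medians of -0.01.

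The tilt was present in genes without any call. For each of 4751 genes with folds on both sides, the median of the 3′ side was subtracted from that of the 5′ side. The difference was above 0 in 3598 genes (75.7%) and had a median of 0.03. Among 4302 genes with no called part it was above 0 in 3198 (74.3%), and among 449 genes with a called part in 400 (89.1%). With 20 or more tested parts it was above 0 in 224 of 237 genes (94.5%), with a median of 0.038. In genes with 2 to 4, 5 to 9 and 10 to 19 tested parts the share above 0 was 72.5%, 75% and 77.2%. The medians there were 0.027, 0.026 and 0.025, and the cause of the difference was not tested. The span of the gene changed the share above 0 little: in 4 groups of equal size, from the shortest to the longest genes, it was 73%, 76.9%, 76.2% and 76.9%. The median difference in these groups was 0.022, 0.028, 0.027 and 0.031, and its relation to span was not tested. Using unclassified parts only, 2935 of 4124 genes (71.2%) had the 5′ side higher.

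Most genes with a call had 1. A single part was called in 377 genes, 2 in 88, 3 in 20, 4 in 10, 5 in 3 and 9 in 2. Of the 123 genes with at least 2 called parts that had folds, 61 had higher parts followed 3′ by lower ones, 41 had higher parts only, 13 had lower parts only, and 7 had lower parts followed by higher ones. The mitochondrial ATP synthase gene Atp5b changed direction more than once. The 7 genes against the general order were Coil, Krt42, Lck, Mkrn1, Rpl9, Tgif1 and Zglp1. They were named after their values were seen.

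**Figure D3:**
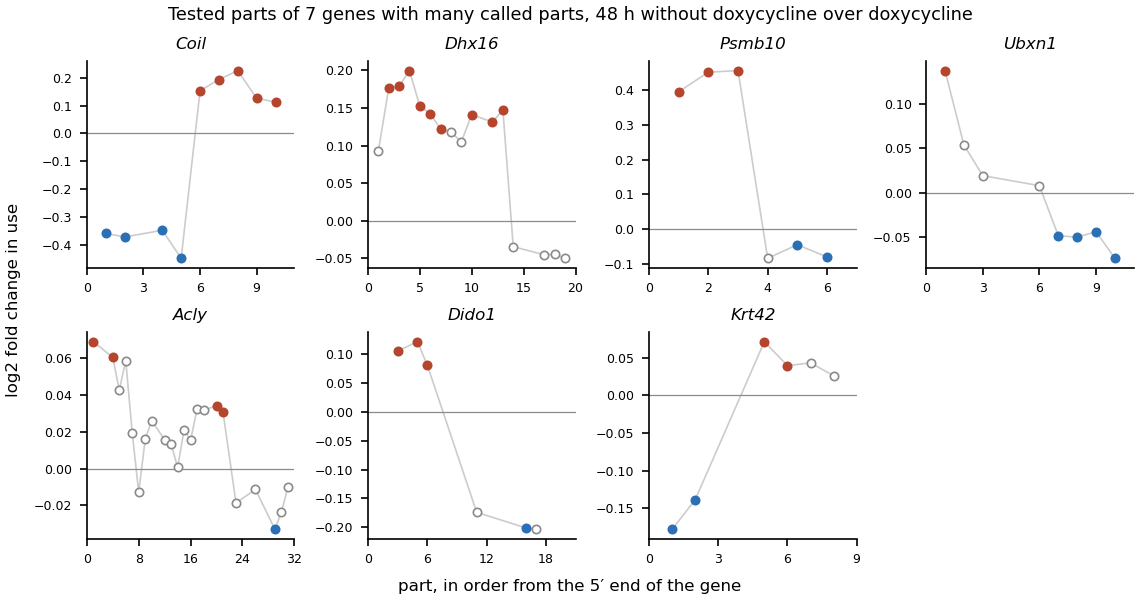
Log2 fold change in use after 48 h without doxycycline over doxycycline (vertical axis) for each tested part, in order from the 5′ end (horizontal axis), of 7 of the 8 genes with the most called parts. Red parts were called higher, blue parts were called lower and open parts were not called; vertical scales differ between genes. Values step down between parts 3 and 4 in Psmb10 and between parts 13 and 14 in Dhx16, and step up between parts 5 and 6 in Coil.

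Psmb10 held the 3 highest values among called parts, in a block. Its first exon E010 stood at 0.40 and the next exons E009 and E008 at 0.45 and 0.46, with adjusted p-values of 1.3e-27, 8.6e-34 and 2.1e-27 in the authors' deposited table. The detained intron E007 that follows them stood at -0.08 and was not called (adjusted p = 0.075), in the authors' deposited table. The 3′ parts E003 (-0.05) and E002 (-0.08) were lower, at adjusted p-values of 0.0076 and 0.049 in the authors' deposited table; the terminal part E002 spans 2 bases. At 72 h the first exon and the exons E009 and E008 stood at 0.58, 0.65 and 0.63 in the authors' deposited table. All 6 parts of the gene were tested, so the step between E008 and E007 is bounded by neighbours in the table.

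Coil, which encodes the Cajal body scaffold coilin, had the same kind of step with the signs turned round. Its parts E001, E002, E004 and E007, at the 5′ end, stood at -0.36, -0.37, -0.35 and -0.45, and the 5 parts E008, E009, E010, E015 and E016 that follow stood at 0.15, 0.19, 0.23, 0.13 and 0.11, in the authors' deposited table. All 9 tested parts were called, with adjusted p-values from 4.5e-14 to 8.4e-06 in the authors' deposited table. The exons E009 and E010 printed above lie in the upper block. At 72 h the same parts ran from -0.48 to -0.21 in the 5′ block and from 0.06 to 0.18 in the 3′ block, in the authors' deposited table.

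Dhx16, the gene of a helicase that activates the assembled spliceosome, also had 9 called parts, all higher. Tested parts E002 to E015 lay between 0.10 and 0.20, highest in E004, and from E016 to the terminal exon E029 the values lay between -0.05 and -0.03 with no call, in the authors' deposited table. The first exon stood at 0.09 and was not called (adjusted p = 0.28), in the authors' deposited table. Sin3b, a scaffold of histone deacetylase complexes, had its higher parts at the 3′ end: E017, E018, E026 and E027 stood at 0.24, 0.20, 0.21 and 0.16, while its 5 tested parts from E001 to E005 lay between -0.03 and 0.02 and were not called, in the authors' deposited table. Sin3b E017 was among the 10 highest called parts, and the rest of its profile was chosen after its values were seen.

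Dido1, a chromatin-binding gene of embryonic stem cells, split between 5′ parts E032 (0.11), E030 (0.12) and E029 (0.08), which were higher, and 3′ parts E016 (-0.17), E010 (-0.20) and E009 (-0.20), of which E010 was called, in the authors' deposited table. At 72 h the 3 higher parts stood between 0.23 and 0.28 and the 3 lower ones between -0.39 and -0.33, all called, in the authors' deposited table. Ubxn1, a cofactor of the ATPase p97, had 1 higher and 4 lower parts among 8 tested, with 0.14 at the first exon (a 4-base part) and -0.07 at the terminal exon in the authors' deposited table. Acly, the gene of ATP citrate lyase, had 4 higher parts between 0.03 and 0.07 and 1 lower part at -0.03 among 22 tested, in the authors' deposited table. Krt42 went the other way: its first exon (-0.18) and second part E010 (-0.14) were lower and parts E005 (0.07) and E004 (0.04) were higher in the authors' deposited table.

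In several other genes with a wide gap between calls, a single part stood apart from its neighbours. In Macf1, which encodes a giant linker of microtubules and actin, the alternative first exon E062 stood at 0.35, and the parts next to it, E063 and E061, at 0.02 each, in the authors' deposited table. The 3′-most part of Macf1, E006, was lower at -0.12 in the authors' deposited table. Aldoa rose in its first exon (0.34), and its 7 other tested parts lay between -0.02 and 0.02 in the authors' deposited table. In Mtch2, a mitochondrial outer membrane gene, and in Hsd3b7 the terminal exon was lower, at -0.25 and -0.33, while the other tested parts that carry exons stayed between -0.03 and 0.07 in Mtch2 and between -0.05 and 0.12 in Hsd3b7, in the authors' deposited table. Whether all parts listed under the name Hsd3b7 belong to that gene was not checked. Ninl, a centrosome gene, differed over a longer stretch: its 6 tested parts from E029 to E014, the ones nearer the 5′ end, lay between 0.10 and 0.20 with 1 called, and the 6 after them, from E010 to E001, lay between -0.16 and -0.02 with 3 called, in the authors' deposited table. Lck rose in the detained intron E012 (0.26) and fell in part E017 (-0.18) near its 5′ end in the authors' deposited table.

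A host transcript of small nucleolar RNAs, 1500012F01Rik, held the lowest value among tested parts. In 1500012F01Rik the parts E004, E005 and E007 stood at -0.37, -0.42 and -0.57 and the terminal part E011, of 17 bases, at -0.06 without a call, in the authors' deposited table. At 72 h these 3 parts stood at -0.80, -0.76 and -0.87 in the authors' deposited table. In 2410006H16Rik the intronic polyadenylation part fell by 0.40 and the terminal exon by 0.06, and part E003 was not called at 0.03, in the authors' deposited table. Snhg1 was lower in its last 2 parts, at -0.10 and -0.14, in the authors' deposited table. Of 17 tested host genes 5 had a called part (29.4%, beside 7.12% of all tested genes), with higher parts in 2 and lower parts in 4. The host genes had a median of 5 tested parts, and of all genes with 5 to 9 tested parts 8.77% had a call. The median over the list's tested parts was 0.00 on the log2 scale, as over all tested parts. Whether counting used strand is not given in the sources used here, so reads of overlapping genes on the opposite strand may enter these values.

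Gene lists were read against the number of parts tested, because the share of genes with a call moved with it. That share was 1.39% with 1 tested part, 5.11% with 2 to 4, 8.77% with 5 to 9, 11.7% with 10 to 19, 23% with 20 to 39 and 42.9% with 40 or more. Genes in the lists had medians of 3 to 16.5 tested parts, and the median over all tested genes was 4. Read depth of the genes, which was not used here, may differ between lists as well, and its part was not tested.

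**Figure D4:**
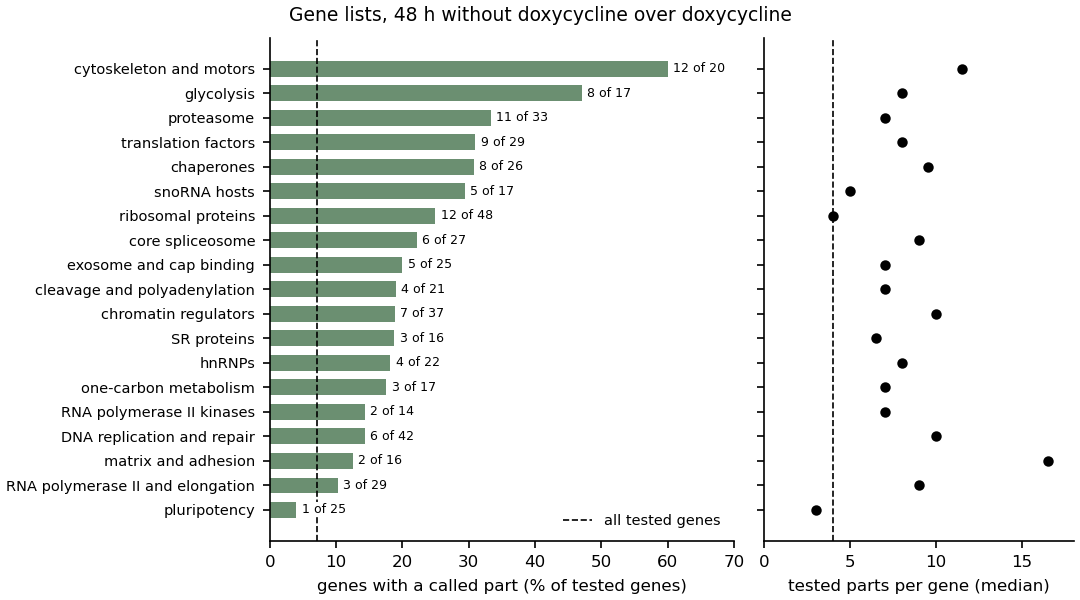
Left, the percentage of tested genes with a called part after 48 h without doxycycline over doxycycline in each gene list (bars, with counts) and over all tested genes (dashed line, 7.12%). Right, the median number of tested parts per gene in each list and over all tested genes (dashed line, 4). Cytoskeleton and motor genes stand highest at 60% with 11.5 tested parts per gene, and pluripotency genes lowest at 4% with 3.

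Cytoskeletal, glycolytic and proteasome genes had the highest shares of genes with a called part among the pathway lists. Median tested parts per gene were 11.5, 8 and 7 in these lists. Of all genes, 11.7% with 10 to 19 tested parts and 8.77% with 5 to 9 had a call. Cytoskeletal and motor genes had calls in 12 of 20 tested (60%), 11 with a higher part, among them Macf1, the actin depolymerising factor Dstn, whose first exon rose by 0.09, and the tubulin gene Tuba1b (0.03), in the authors' deposited table. Glycolytic genes had calls in 8 of 17 (47.1%), with higher parts in 6 and lower parts in 6. Besides the first exon of Aldoa, the terminal exon of the lactate dehydrogenase gene Ldha was lower (-0.02) and so was an internal part of Ldhb (-0.05), in the authors' deposited table. Proteasome genes had calls in 11 of 33 (33.3%), 6 higher and 7 lower; after Psmb10 the lowest adjusted p-values were those of the terminal exon of Psma3 (-0.13) and of a part of Psma6 (-0.05), in the authors' deposited table. The list medians over tested parts were 0.01 for cytoskeletal genes, 0.01 for glycolysis and 0.00 for the proteasome, against 0.00 over all tested parts.

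Translation and chaperone genes had shares between 25% and 31%. Median tested parts per gene were 8 for translation factors and 9.5 for chaperones. Of all genes, 5.11% with 2 to 4 tested parts, 8.77% with 5 to 9 and 11.7% with 10 to 19 had a call. Translation factors had calls in 9 of 29 tested genes (31%), led by the elongation factor gene Eef1a1 (0.03), the helicase cofactor gene Eif4h (-0.11) and the helicase gene Eif4a1 (-0.02), in the authors' deposited table. Cytosolic ribosomal proteins had calls in 12 of 48 (25%), with higher parts in 7 and lower parts in 11, at a median of 4 tested parts per gene. An internal part rose in Rpl14 (0.03) and another fell in Rpl10 (-0.03), in the authors' deposited table. Ribosomal protein genes have many near-identical copies in the genome, and how reads shared with such copies were counted is not given in the sources used here, so these values are uncertain. Chaperone genes had calls in 8 of 26 (30.8%), led by the chaperonin subunits Cct5 (-0.02) and Cct2 (0.04) and by Hsp90ab1 (0.02), in the authors' deposited table.

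RNA processing genes had intermediate shares. The medians of these lists ran from 6.5 to 9 tested parts per gene. Of all genes with 5 to 9 tested parts, 8.77% had a call. Core spliceosome genes had calls in 6 of 27 tested (22.2%), with higher parts in 4 and lower parts in 4. Dhx16 held 9 of the 19 called parts, and the GTPase gene Eftud2 (0.10) and the U2 snRNP gene Sf3a1 (0.06) each rose in an internal part, in the authors' deposited table. SR proteins had calls in 3 of 16 (18.8%), with first exons of Acin1 (0.23) and Srsf3 (0.08) higher beside the part of Srsf2, in the authors' deposited table. The hnRNP family had calls in 4 of 22 (18.2%), led by a 5′ part of the splicing repressor gene Ptbp1 (0.07), by Hnrnpk and by Pcbp2 (0.08), in the authors' deposited table. Cleavage and polyadenylation factors had calls in 4 of 21 (19%): Pabpc4 (0.07) and Nudt21 (0.06) rose, and Cpsf1 and Fip1l1 fell, in the authors' deposited table. Nuclear exosome and cap-binding genes had calls in 5 of 25 (20%), where the first exon of Ncbp2 (0.13) and a part of Srrt (0.10) rose and a part of the nuclease gene Dis3 (-0.12) fell, in the authors' deposited table.

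Genes of transcription, chromatin and adhesion had shares between 10.3% and 18.9%. Of all genes, 8.77% with 5 to 9 tested parts and 11.7% with 10 to 19 had a call. The polymerase and elongation list (10.3%, median of 9 tested parts) and the matrix and adhesion list (12.5%, median of 16.5) were near those shares. Median tested parts were 7 for polymerase kinases and for folate and methionine cycle genes. They were 10 for chromatin regulators and for replication and repair genes. RNA polymerase II and elongation factor genes had calls in 3 of 29 tested (10.3%): the first exons of Supt5h (0.15) and Ssrp1 (0.13) were higher and the terminal exon of Supt16h (-0.05) was lower, in the authors' deposited table. Polymerase kinases had calls in 2 of 14 (14.3%), among them Cdk12. None of the 14 parts of Cdk13 was tested at 48 h, so the 48 h values do not show the withdrawn gene. Some of its parts have values at 72 h only. In Cdk12, 11 parts were tested and the 5′-most part E001 was higher at 0.11 (adjusted p = 0.028), while E002 stood at 0.14 without a call (adjusted p = 0.28), in the authors' deposited table. The 6 tested parts of Ccnk, the cyclin K gene, lay between -0.01 and 0.03 with adjusted p-values of 0.81 or more in the authors' deposited table. Chromatin regulators had calls in 7 of 37 (18.9%) and DNA replication and repair genes in 6 of 42 (14.3%), with rises in Arid1a (0.11), the polymerase gene Pole (0.15) and the first exon of Mcm3 (0.07), and falls in the terminal exon of Chd2 (-0.07) and in Pold1 (-0.08), in the authors' deposited table. Folate and methionine cycle genes had calls in 3 of 17 (17.6%), all higher: Psat1 (0.04), Ahcy (0.04) and Mthfd1 (0.07), in the authors' deposited table. The matrix and adhesion list, which also holds Notch1, had calls in 2 of 16 genes (12.5%). These were the terminal exon of Notch1 (-0.27) and a cassette exon of fibronectin, Fn1 (0.11), in the authors' deposited table.

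Of the pathway lists, that of pluripotency genes had the lowest share of genes with a called part. Of 25 tested, 1 had a called part (4%), Dppa4, whose first exon (0.14) and second part (0.08) rose in the authors' deposited table. The list had a median of 3 tested parts per gene, and of all genes with 2 to 4 tested parts 5.11% had a called part. The 5′ side was above the 3′ side in 14 of 16 of its genes with folds on both sides, against 75.7% of all such genes. This was not particular to the list. Other pathway lists ran from 7 of 14 for small nucleolar RNA hosts to 22 of 24 for the core spliceosome, 12 of 13 for matrix and adhesion and 15 of 16 for cytoskeletal genes.

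By 72 h, against the same doxycycline libraries, parts called higher at 48 h had a median log2 fold change of 0.08 at both times. Parts called lower had a median of -0.08 at both times. The terminal exons called lower stood at -0.08 at 48 h and -0.10 at 72 h.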

How the data were processed

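Polyadenylated RNA had been sequenced with a strand-specific kit, per the labels' protocols. The submitters' processing notes name STAR 2.4.1d and, as genome build, mm9. The authors deposited FDR-adjusted p-values and log2 fold changes per exon part from DEXSeq, withdrawal over doxycycline, per the file headers. DEXSeq's version, its model and any shrinkage of folds: not given in the sources used here. No test was added: values per library were not used, so calls are the authors' adjusted p below 0.05, and counts, shares and medians were computed with Python 3.11.15 and pandas 2.3.3, on functions tested on simulated data. The 22 gene names that a spreadsheet had turned into dates were restored from the part identifiers, and 49 names join 2 or more genes. Sequences were matched by a width unique among the gene's exons and by the same distance between builds as another exon of the gene. Only 127 of 244 higher and 70 of 136 lower internal parts could be matched, so a check of base composition would be void and none is given. List genes were matched by symbol (542 entries) or older name (18), and 38 were unmatched. Members, lists and rules were chosen with earlier results of these data known. The text names the 10 highest and 10 lowest called parts, the 3 of lowest adjusted p per class and direction, the 8 genes with most calls, the 8 with the largest gap between calls, up to 3 genes per list, and Cdk13, Cdk12 and Ccnk; a few items that these rules pick are not reported here.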

Additional observations from a re-analysis of the deposited data

How the results depend on the processing

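At an adjusted p below 0.01, 303 parts (185 higher, 115 lower) of 229 genes were called, with 67 first exons higher, 61 terminal exons lower, 3 terminal exons higher and 61 list genes called, against 109 list genes at 0.05. Below 0.1 there were 1194 parts (735 higher, 445 lower) of 821 genes, with 222 first exons and 11 terminal exons higher. Requiring folds of 0.1 or more on the log2 scale, 265 parts remained (166 higher, 99 lower). The share of higher parts on the 5′ side was 81.9% over unclassified parts only and 81% without first and terminal exons, where the share of lower parts on the 3′ side was 86.9%. By distance in bases the shares were 75.9% on the 5′ side and 90% on the 3′ side. The cause of these differences was not tested, apart from thresholds, which set the number of calls by construction. With 1 called part per gene, the shares were 88.9% of higher parts on the 5′ side and 93.7% of lower parts on the 3′ side. With genes of at least 10 parts they were 86.1% and 90.5%. These sets lie within the full set, and parts of a gene are not independent, so no interval is given. The share of all tested parts on each side is not given beside these percentages, so they cannot be read against an even split. No paired analysis was possible because the table has no values per library, and for the same reason no library could be left out. Depth per library is unknown here. As 30.5% of parts were tested at 48 h, a part without a call was not shown to be unchanged.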

Other observations

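Of the 42340 tested parts, 737 had an adjusted p without a fold change, and each was the lone tested part of its gene. There were 1440 genes with a lone tested part, and 567 of the 737 parts were terminal exons. The 10 called parts without a fold were all of this kind: terminal exons of Arid3a, Fam172a, Hdac11, Mtus2, Taf13, Trp53inp2, Vps13b and Zyg11a, the first exon of Jam2 and an unclassified part of Rere. They were named after their values were seen.

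Pvrl2, which encodes the adhesion protein nectin-2, had 4 called parts, all lower and adjacent at its 3′ end: E004 (-0.16), E003 (-0.18), E002 (-0.17) and the terminal exon E001 (-0.10), in the authors' deposited table. Its 7 tested parts 5′ of these lay between -0.01 and 0.07 and were not called, in the authors' deposited table. Pgk1, the gene of phosphoglycerate kinase, had 4 adjacent 5′ parts called higher at 0.01 to 0.03, and its 3 tested parts at the 3′ end stood between -0.06 and -0.02 without a call, in the authors' deposited table. Both profiles were chosen after their values were seen.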
